A study of Mus musculus with 16 samples.

Results

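The Wnt pathway genes measured here were 50 genes covered by 78 probes, among 41174 probes on each of 16 arrays. The name rule took every gene called Wnt, Fzd, Dkk or Sfrp with a number, Dkkl1, and Lrp5, Lrp6, Axin1, Axin2, Lef1, Tcf7, Tcf7l1, Tcf7l2, Tcf3, Ctnnb1, Apc and Gsk3b. By role they were 19 ligands with 23 probes, 12 receptors or co-receptors with 20 probes, 9 secreted inhibitors and relatives with 11 probes, 5 cytoplasmic components with 13 probes, and 5 nuclear factors with 11 probes. The arrays were 1-colour Agilent oligonucleotide arrays of mouse cells that had been reprogrammed from fibroblasts with a human artificial chromosome (HAC), and of reference cells.

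MEF was 1 array of embryonic fibroblasts of C57BL/6 mice, the kind of cell that was reprogrammed. ES was 2 embryonic stem cell lines, B6ES of C57BL/6 and TT2 of a C57BL/6 x CBA cross. 20D17 was 1 line of induced pluripotent stem (iPS) cells made with retroviruses on a C57BL/6 x DBA background. iHAC1-iPS was 4 C57BL/6 lines (1-A3, 1-B, 1-C3 and 1-D6) that carried iHAC1, an artificial chromosome with 2 copies each of Klf4, c-Myc, Sox2 and Oct4 under the CAG promoter, which is active in most cell types. iHAC2-iPS was 4 C57BL/6 lines (2-B1, 2-C6, 2-E and 2-N) with iHAC2, which adds 2 further copies of Oct4 and a p53 knockdown. iHAC-free-iPS was 4 lines that had lost iHAC2, F-B1 from 2-B1, F-C5 from 2-C6, F-E4 from 2-E, and F-N7 from 2-N. The reprogramming protocol included transfection of microRNA mimics. Each stem cell array was a separate line and no line was repeated, so p-values measure the spread between lines. The stem cell lines were grown on a fibroblast feeder layer with leukemia inhibitory factor, so their RNA can hold feeder RNA.

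Wnt proteins are secreted lipid-modified signals that bind Frizzled (Fzd) receptors together with Lrp5 or Lrp6. In the canonical branch this stops the complex of Axin, Apc and Gsk3b from marking β-catenin (Ctnnb1) for degradation, and β-catenin then enters the nucleus and works through the Tcf and Lef factors. Mouse ES cells are known to hold their undifferentiated state better when this branch is active, with Tcf7l1 acting as a repressor of pluripotency genes, and the same signals drive the primitive streak in the embryo. The comparisons ask how far the lines made with each vector, and the lines freed of it, resembled ES cells in these genes.

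Levels below are log2 of the background-subtracted signal minus the 75th percentile of the array, so 0 is a bright probe and a difference of 1 is 2-fold. Values are listed in a fixed order within a group, B6ES and TT2 for ES, 1-A3, 1-B, 1-C3 and 1-D6 for iHAC1-iPS, 2-B1, 2-C6, 2-E and 2-N for iHAC2-iPS, and for iHAC-free-iPS the lines in the order of their parents. Brightness depends on the probe, so levels are compared between arrays and never between probes. A probe was called when limma's moderated test over all probes gave a Benjamini-Hochberg adjusted p under 0.05 and the difference was at least 2-fold. Where a gene had several probes they are numbered as in the heat map, and each is reported apart.

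Of the 78 probes, 48 probes of 35 genes were well above background on all 16 arrays. 1 probe, the second of Lef1, was above background on none and was not tested, which left 77. 7 probes were above background on 1 array alone. Of these, Wnt10b, Wnt2b, Wnt9a (2) and Fzd8 (2) were seen only in MEF, Wnt8b only in 2-N, Dkk4 only in F-E4 and Sfrp5 only in TT2, so their presence among the tested probes rests on that array.

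**Figure D1:**
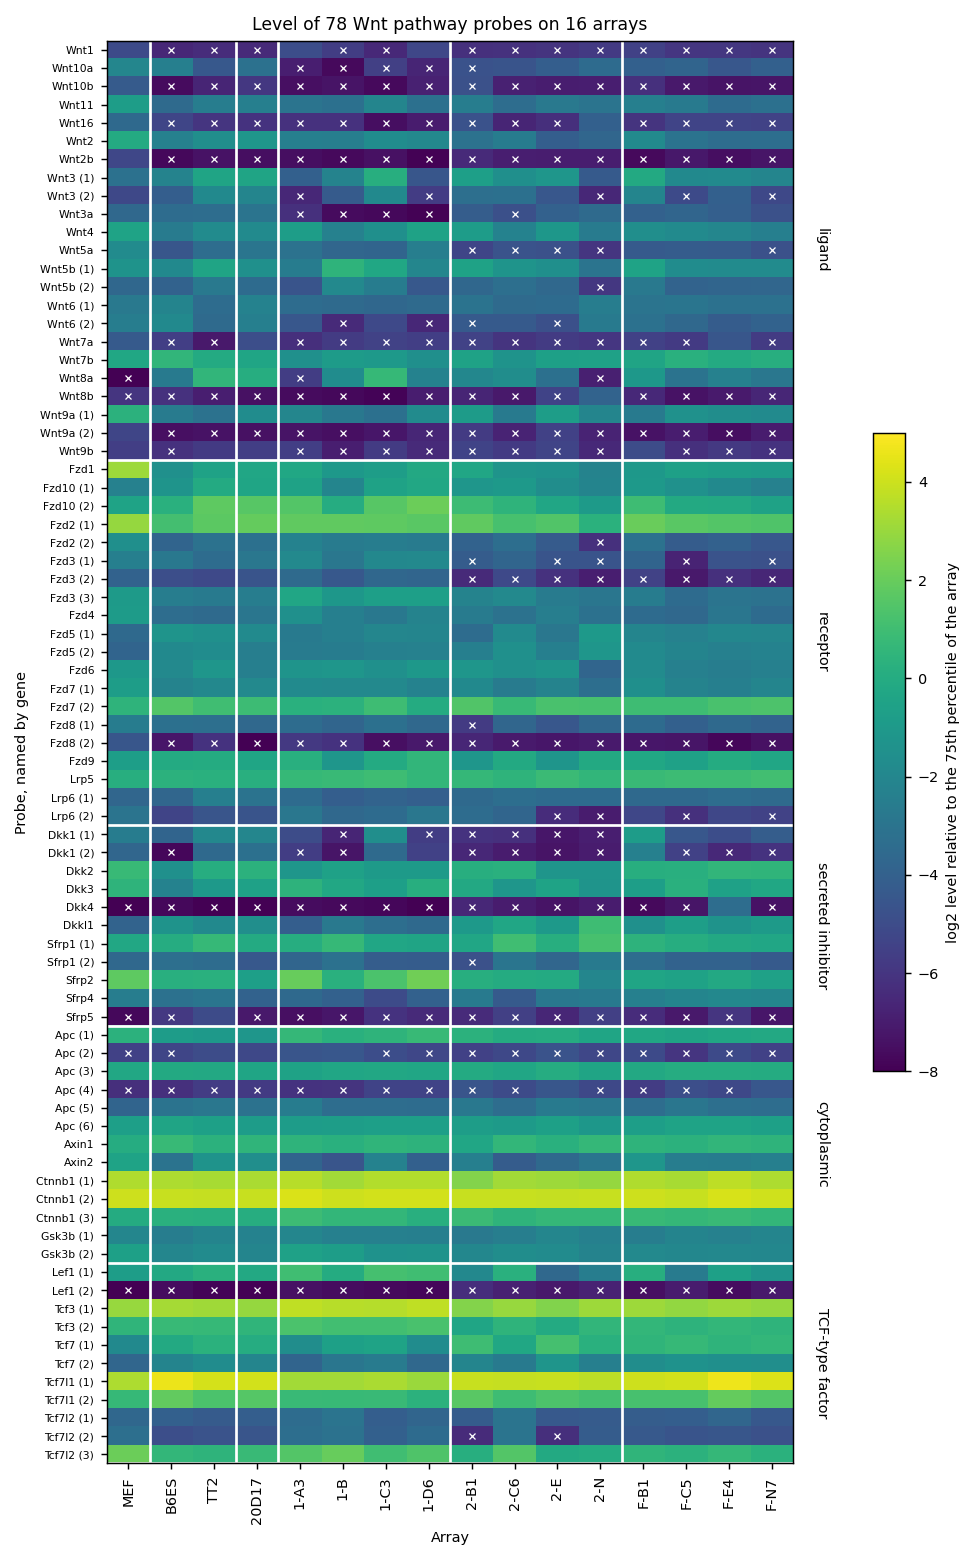
Heat map of the log2 level (the array's 75th percentile is 0) of all 78 probes (rows, ordered by role, gene names with a probe number where a gene has several) on 16 arrays (columns, groups separated by white lines). White crosses mark probes not well above background on that array. Ctnnb1 (1 and 2) and Tcf7l1 (1) are bright throughout, while many ligands are crossed on most arrays.

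The arrays had 54.2 to 65.8% of their spots well above background and no saturated spot. The dimmest signal that counted as well above background was higher in iHAC2-iPS (-5.07 to -4.35) than in iHAC1-iPS (-5.79 to -5.32), so a dim ligand could be measured further down in iHAC1-iPS. MEF and the iHAC1 lines 1-A3, 1-B and 1-C3 shared slide 1, B6ES, TT2, 20D17 and 1-D6 shared slide 2, and all iHAC2 and iHAC-free lines were on slides 3 and 4 of a second scan session. Scan session and group therefore cannot be told apart whenever iHAC2-iPS or iHAC-free-iPS is set against ES or iHAC1-iPS. Cell type markers were read on the same arrays. The summed level of 15 fibroblast markers was 405 in MEF, 104 to 267 in ES and 431 in 20D17. It was 302 to 610 in iHAC1-iPS, 143 to 384 in iHAC2-iPS and 242 to 367 in iHAC-free-iPS. The summed level of 8 pluripotency markers was 1.07 in MEF, 428 to 564 in ES, 100.1 to 106.7 in iHAC1-iPS, 312 to 759 in iHAC2-iPS and 478 to 589 in iHAC-free-iPS. In iHAC1-iPS most of the sum is Pou5f1, the Oct4 gene, which the vector also carries, at 6.32 to 6.67 on the log2 scale against 3.56 and 4.00 in ES. All 8 were above background on every array of ES, iHAC2-iPS and iHAC-free-iPS, against 5 to 8 in iHAC1-iPS, where Zfp42 (Rex1) stood at -5.88 to -3.48 compared with 2.89 and 5.18 in ES. The iHAC1 lines thus went against the label of pluripotent cells in part of these markers.

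The iHAC1-iPS lines differed from ES in 11 of 77 member probes, 4 higher and 7 lower, 1 for each of 11 genes. Wnt3a, Wnt10a, Wnt6 and Wnt7b were lower, as were Tcf7, Tcf7l1 and Dkkl1, while Fzd3, Fzd4, Dkk3 and Apc were higher. That is 14.3% of the members, against 14.3% of all probes (6.88% higher and 7.39% lower), so in the share called the pathway did not stand out from the rest of the array. The median difference was 0.01 over the members and 0.02 over all probes. Taken without its sign, the median difference was larger in the members, at 0.67 against 0.46 over all probes. For iHAC1-iPS against iHAC2-iPS these unsigned medians were 0.71 and 0.53. Against iHAC2-iPS, 18 probes of 15 genes were called, 11 higher and 7 lower in iHAC1-iPS, which is 23.4% of the members against 20% of all probes (8.68% higher and 11.3% lower). In bulk RNA such a difference can be fewer cells of a type or less RNA per cell, and these cannot be told apart. Both comparisons share the iHAC1 arrays.

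**Figure D2:**
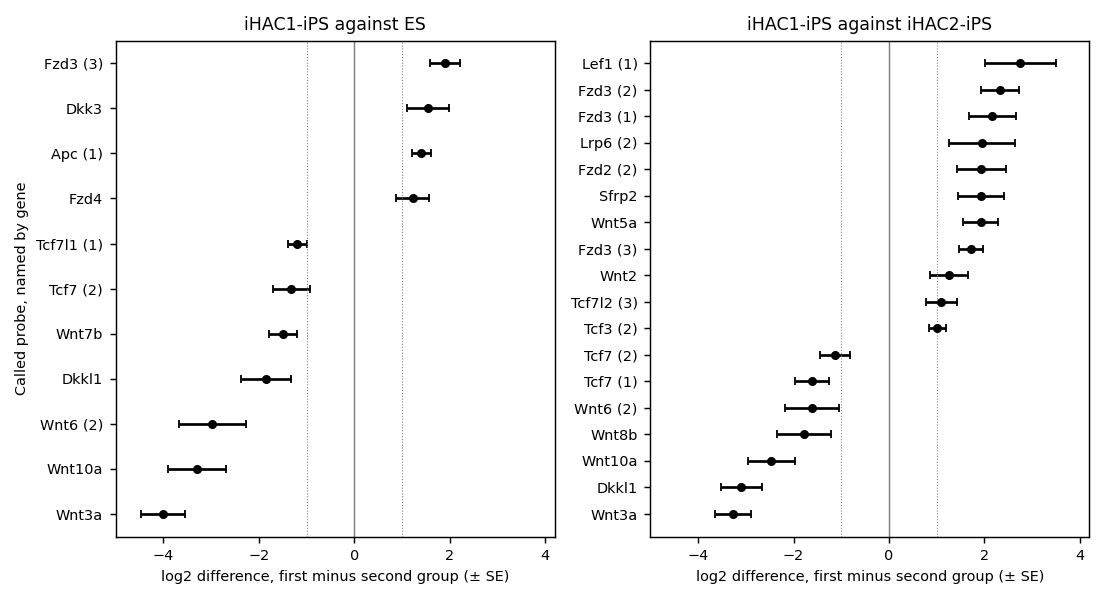
Fitted log2 difference (x axis) with its standard error for each called probe, on the left iHAC1-iPS (4 lines) minus ES (2 lines) and on the right iHAC1-iPS minus iHAC2-iPS (4 lines each). Dotted lines mark a 2-fold difference. Wnt3a and Wnt10a on both sides, and Wnt5a, Wnt8b and Fzd3 (2) on the right, were below background throughout 1 group. Their plotted values are therefore no measured fold. For Wnt3a the approximate bounds are at least 4.43- and 2.64-fold. Fzd3 probes lie to the right on both sides.

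Among the ligands, 4 of 23 probes were lower in iHAC1-iPS than in ES and none was higher, next to 7.39% lower and 6.88% higher among all probes. Wnt3a, a ligand of the canonical branch that the primitive streak and tailbud use, stood at -3.38 and -3.36 in ES, -6.22, -7.63, -7.74 and -7.95 in iHAC1-iPS, -4.18, -4.83, -3.94 and -3.52 in iHAC2-iPS, -3.98, -3.78, -4.05 and -4.78 in iHAC-free-iPS, -3.60 in MEF and -3.02 in 20D17. It was above background on both ES arrays and on none of the 4 iHAC1 arrays, so the groups did not overlap. By the approximate bound that background allows, the iHAC1 mean was at least 4.43-fold lower than ES (limma, adjusted p = 0.000235). It was at least 2.64-fold lower than iHAC2-iPS, where 3 of 4 arrays measured Wnt3a (adjusted p = 0.000155).

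Wnt10a, another ligand of the canonical branch, stood at -2.38 and -4.41 in ES, -6.92, -7.66, -5.55 and -6.65 in iHAC1-iPS, -4.71, -4.62, -4.12 and -3.44 in iHAC2-iPS, -4.01, -3.80, -4.49 and -4.04 in iHAC-free-iPS, -2.01 in MEF and -3.15 in 20D17. All 4 iHAC1 arrays were below background and below every other array, MEF included. The bound was at least 4.36-fold lower than ES (adjusted p = 0.0030) and at least 2.45-fold lower than iHAC2-iPS (adjusted p = 0.0028). The ES call was lost without B6ES, the ES line with the higher level, with slide as a block (adjusted p = 0.057) and with normexp background correction (a difference of -0.77, under 2-fold).

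Wnt6 lies beside Wnt10a in the genome, with the called Wnt6 probe at chr1:74831461-74831520 and the Wnt10a probe at chr1:74850633-74850692 (mm9, plus strand), 19112 bases apart. Its second probe stood at -1.85 and -3.51 in ES, -4.49, -6.45, -5.14 and -6.53 in iHAC1-iPS, -4.33, -4.30, -4.85 and -2.69 in iHAC2-iPS, -3.17, -3.62, -4.19 and -3.91 in iHAC-free-iPS, -2.47 in MEF and -2.37 in 20D17. The iHAC1 values lay below both ES values, a difference of -2.98 ± 0.69 (SE, adjusted p = 0.011), and it was also lower than in iHAC2-iPS by -1.61 ± 0.57 (adjusted p = 0.041) with overlapping ranges. In each of these 2 groups 2 of 4 arrays measured it. The first Wnt6 probe, above background on all 16 arrays, stood at -2.15 and -3.41 in ES, -3.42, -3.50, -3.67 and -3.51 in iHAC1-iPS, -3.06, -3.49, -3.46 and -2.50 in iHAC2-iPS, -2.97, -2.96, -3.14 and -3.13 in iHAC-free-iPS, -2.76 in MEF and -2.21 in 20D17. It ran the same way by -0.74 ± 0.32 and was not called (adjusted p = 0.12). The other neighbouring ligand pairs were Wnt3a with Wnt9a, Wnt3 with Wnt9b and Wnt1 with Wnt10b, with probes 21112 to 88467 bases apart, and in none of them were both genes called in iHAC1-iPS against ES.

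Wnt7b, expressed in epithelia, stood at 0.55 and -0.03 in ES, -1.48, -0.88, -1.02 and -1.55 in iHAC1-iPS, -0.48, -1.32, -0.59 and -0.56 in iHAC2-iPS, -0.39, 0.27, -0.04 and 0.17 in iHAC-free-iPS, -0.26 in MEF and -0.36 in 20D17. All iHAC1 values were under both ES values, and the difference was -1.49 ± 0.29 (SE, adjusted p = 0.0047). The 4 iHAC-free lines lay within the range of B6ES, TT2 and 20D17 except F-B1 at -0.39.

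A separate pair of ligands was higher in iHAC1-iPS than in iHAC2-iPS. Wnt5a, the main ligand of the non-canonical branch, stood at -4.52 and -3.35 in ES, -3.12, -3.70, -3.79 and -2.46 in iHAC1-iPS, -5.26, -4.70, -4.77 and -6.01 in iHAC2-iPS, -4.31, -4.20, -4.27 and -4.80 in iHAC-free-iPS, -1.74 in MEF and -2.95 in 20D17. It was above background on all 4 iHAC1 arrays and on none of the iHAC2 arrays, and the former were at least 2.63-fold higher (adjusted p = 0.0024). Wnt2 stood at -2.28 and -1.56 in ES, -2.39, -2.43, -1.66 and -1.93 in iHAC1-iPS, -3.09, -2.54, -4.10 and -3.73 in iHAC2-iPS, -1.76, -3.04, -3.33 and -3.31 in iHAC-free-iPS, -0.06 in MEF and -1.15 in 20D17, a difference of 1.26 ± 0.41 (adjusted p = 0.029) with no overlap between these 2 groups. MEF was the highest array for both genes, at -1.74 for Wnt5a and -0.06 for Wnt2.

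The Wnt5a probe crosses an intron, covering chr14:29331746-29335708 of mm9, and is shown with the Wnt5b and Wnt4 probes, as ligands best known outside the canonical branch. The Wnt5b probe is at chr6:119390320-119390379 (minus strand) and the Wnt4 probe at chr4:136851690-136852258 (plus strand), also across an intron. They are written 5′ to 3′ as spotted on the array.
Wnt5a: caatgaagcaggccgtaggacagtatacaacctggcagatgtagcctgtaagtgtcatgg
Wnt5b (2): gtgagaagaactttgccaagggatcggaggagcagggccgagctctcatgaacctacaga
Wnt4: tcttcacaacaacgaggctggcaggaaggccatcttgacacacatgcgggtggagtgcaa

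The other 2 called ligands were dim. Wnt8b stood at -6.16 and -6.93 in ES, -7.64, -7.71, -7.85 and -6.94 in iHAC1-iPS, -6.66, -7.11, -5.41 and -3.87 in iHAC2-iPS, -6.49, -7.35, -7.07 and -6.62 in iHAC-free-iPS, -6.02 in MEF and -7.43 in 20D17, was above background only in 2-N, and is called lower in iHAC1-iPS than in iHAC2-iPS (adjusted p = 0.028) with no fold that background allows. The second Wnt9a probe stood at -7.48 and -7.37 in ES, -7.33, -7.48, -7.22 and -6.60 in iHAC1-iPS, -5.73, -6.72, -5.51 and -6.68 in iHAC2-iPS, -7.39, -6.96, -7.50 and -7.04 in iHAC-free-iPS, -5.26 in MEF and -7.41 in 20D17. It was above background in MEF alone, so its call, 1.26 ± 0.36 higher in iHAC2-iPS than in ES (adjusted p = 0.041), sets values below background against each other on arrays with different floors. The first Wnt9a probe, above background throughout, stood at -2.58 and -3.08 in ES, -2.04, -2.79, -3.20 and -1.72 in iHAC1-iPS, -0.85, -2.70, -0.76 and -2.06 in iHAC2-iPS, -2.66, -1.41, -1.60 and -1.76 in iHAC-free-iPS, 0.34 in MEF and -1.69 in 20D17 and was called in none of the comparisons. The remaining ligands were called in none either, and of them Wnt1, Wnt16, Wnt7a and Wnt9b were below background on most arrays.

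Of the receptors, 5 of 20 probes were higher in iHAC1-iPS than in iHAC2-iPS (8.68% of all probes) and 2 than in ES (6.88%), and none was lower. The 5 were all 3 probes of Fzd3, with Fzd2 (2) and Lrp6 (2), so 1 gene holds most of them. The 2 were Fzd3 (3) and Fzd4. Fzd3, a receptor known for axon guidance and planar polarity, gave the clearest pattern. Fzd3 (3) stood at -2.48 and -2.67 in ES, -0.30, -1.10, -0.66 and -0.67 in iHAC1-iPS, -2.20, -1.90, -2.59 and -2.92 in iHAC2-iPS, -2.52, -3.44, -2.98 and -3.10 in iHAC-free-iPS, -0.93 in MEF and -2.50 in 20D17. Every iHAC1 value exceeded every ES, 20D17, iHAC2 and iHAC-free value, and MEF lay inside the iHAC1 range. The difference was 1.89 ± 0.31 from ES (adjusted p = 0.0018) and 1.72 ± 0.25 from iHAC2-iPS (adjusted p = 0.00054).

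The first Fzd3 probe stood at -2.80 and -3.42 in ES, -1.90, -2.85, -1.92 and -1.89 in iHAC1-iPS, -4.21, -3.77, -4.60 and -4.64 in iHAC2-iPS, -3.83, -6.71, -4.67 and -4.76 in iHAC-free-iPS, -2.38 in MEF and -2.83 in 20D17, 2.17 ± 0.50 above iHAC2-iPS (adjusted p = 0.0059). Of the iHAC2 arrays only 2-C6 measured it, and the call was lost with normexp background correction (a difference of 0.88, under 2-fold). The second stood at -4.86 and -5.15 in ES, -3.52, -4.41, -3.64 and -3.75 in iHAC1-iPS, -6.43, -5.15, -6.15 and -6.89 in iHAC2-iPS, -5.43, -7.10, -6.20 and -6.59 in iHAC-free-iPS, -3.92 in MEF and -4.60 in 20D17 and was above background on all 4 iHAC1 arrays and on no iHAC2 or iHAC-free array. Its level in iHAC1-iPS exceeded that in iHAC2-iPS at least 1.91-fold (adjusted p = 0.0012). The 3 probes, of 1 transcript and so not independent, ran the same way. This second probe crosses an intron and spans chr14:65831004-65853753 (mm9, minus strand). It is shown with the probes of Fzd2 (chr11:102467613-102467672) and Fzd7 (chr1:59541367-59541426, both plus strand) to show how alike the probes of related receptors are. Capitals in the Fzd7 probe mark the bases it shares with the Fzd2 probe, 42 of the 50 that line up.
Fzd3 (2): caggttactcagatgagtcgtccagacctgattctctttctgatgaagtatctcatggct
Fzd2 (1): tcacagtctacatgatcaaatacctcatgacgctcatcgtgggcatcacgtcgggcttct
Fzd7 (1): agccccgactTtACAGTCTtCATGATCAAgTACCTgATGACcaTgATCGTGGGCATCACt

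Whether the Fzd2 and Fzd7 probes also bind each other's transcript was not tested. Fzd2 (1) ran from 1.13 to 2.01 over the stem cell arrays apart from 2-N at 0.30, and Fzd7 (1) from -2.58 to -1.54 apart from 2-N at -3.31. MEF was higher in both, at 2.97 and -0.79, and neither was called. Fzd7 (2), above background on all 16 arrays and also not called, ran otherwise. It was 0.43 in MEF, 1.51 and 1.02 in ES, -0.03 to 0.97 in iHAC1-iPS and 1.24 in 2-N. The Fzd7 probes therefore disagreed on MEF against ES. The second Fzd2 probe stood at -3.82 and -3.11 in ES, -2.23, -2.58, -2.52 and -2.58 in iHAC1-iPS, -3.90, -3.29, -4.26 and -6.20 in iHAC2-iPS, -3.12, -4.22, -3.95 and -4.46 in iHAC-free-iPS, -1.54 in MEF and -3.23 in 20D17, 1.93 ± 0.51 higher in iHAC1-iPS than in iHAC2-iPS (adjusted p = 0.012) with no overlap, and 2-N was not above background.

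Fzd4, the receptor of Norrin in retinal vessels, stood at -3.37 and -3.50 in ES, -1.47, -2.39, -2.81 and -2.18 in iHAC1-iPS, -2.57, -3.12, -2.42 and -3.15 in iHAC2-iPS, -3.45, -3.62, -2.89 and -3.44 in iHAC-free-iPS, -0.84 in MEF and -2.88 in 20D17. iHAC1-iPS was 1.22 ± 0.34 above ES (adjusted p = 0.024) with no overlap, and MEF was the highest array. Among the remaining receptors, Fzd1 was brightest in MEF at 3.07 against -2.18 to -0.17 on the 15 other arrays. Fzd5, Fzd6, Fzd8, Fzd9 and Fzd10 were called in none of the comparisons.

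The co-receptors gave mixed readings. Lrp5 stood at 0.38 and 0.25 in ES, 0.70, 0.81, 0.95 and 0.63 in iHAC1-iPS, 0.68, 0.44, 0.84 and 0.57 in iHAC2-iPS, 0.81, 0.89, 0.89 and 1.08 in iHAC-free-iPS, 0.15 in MEF and 0.20 in 20D17 and was called in none of the comparisons, with 0.46 ± 0.16 for iHAC1-iPS minus ES (adjusted p = 0.054). The first Lrp6 probe stood at -3.72 and -2.38 in ES, -3.46, -4.12, -3.85 and -4.05 in iHAC1-iPS, -3.54, -3.30, -3.46 and -3.44 in iHAC2-iPS, -3.56, -3.57, -3.35 and -3.52 in iHAC-free-iPS, -3.72 in MEF and -3.06 in 20D17, and TT2 was the highest array. The second Lrp6 probe stood at -5.32 and -4.59 in ES, -2.85, -3.58, -3.43 and -2.87 in iHAC1-iPS, -3.42, -3.74, -6.36 and -7.03 in iHAC2-iPS, -5.24, -6.21, -5.22 and -5.46 in iHAC-free-iPS, -3.02 in MEF and -4.63 in 20D17. It was 1.95 ± 0.69 higher in iHAC1-iPS than in iHAC2-iPS (adjusted p = 0.042), although the ranges overlapped and 2-E and 2-N were below background, and the first probe ran the other way by -0.44 ± 0.24 (adjusted p = 0.17). The 2 probes of Lrp6 therefore disagreed, and neither carries a RefSeq accession.

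Among the secreted inhibitors, Dkkl1 and Sfrp2 moved between the 2 vectors in opposite directions. Dkkl1, a relative of the Dickkopf proteins best known from testis and the early embryo, stood at -1.31 and -1.85 in ES, -4.12, -2.72, -3.31 and -3.57 in iHAC1-iPS, -1.03, -0.31, -0.98 and 0.96 in iHAC2-iPS, -1.49, -0.71, -1.30 and -0.90 in iHAC-free-iPS, -3.86 in MEF and -1.55 in 20D17. iHAC1-iPS lay under all other stem cell arrays with MEF inside its range, -3.09 ± 0.42 from iHAC2-iPS (adjusted p = 0.00035) and -1.85 ± 0.52 from ES (adjusted p = 0.025). Sfrp2, which binds Wnt ligands outside the cell and is made by fibroblasts, stood at 0.23 and 0.24 in ES, 1.96, 0.26, 1.34 and 2.19 in iHAC1-iPS, 0.12, 0.01, -0.07 and -2.04 in iHAC2-iPS, -0.35, -0.53, -0.14 and -0.56 in iHAC-free-iPS, 1.78 in MEF and -0.65 in 20D17. It was 1.93 ± 0.49 higher in iHAC1-iPS than in iHAC2-iPS (adjusted p = 0.0094), with no overlap, and MEF lay inside the iHAC1 range.

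Dkk3 stood at -2.26 and -0.99 in ES, 0.38, -0.19, -0.67 and 0.17 in iHAC1-iPS, -0.14, -1.17, -0.45 and -1.25 in iHAC2-iPS, -0.72, 0.26, -0.58 and -0.28 in iHAC-free-iPS, 0.45 in MEF and -0.56 in 20D17, 1.55 ± 0.44 above ES in iHAC1-iPS (adjusted p = 0.026). B6ES was the lowest of all 16 arrays. Dkk2, Sfrp1 and Sfrp4 were above background on all or all but 1 array and were called in none of the comparisons.

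In the cytoplasmic core 1 of 13 probes was called in iHAC1-iPS against ES, next to 14.3% of all probes. Ctnnb1 (2), encoding β-catenin, stood at 3.93 and 3.88 in ES, 4.26, 3.99, 4.10 and 4.11 in iHAC1-iPS, 3.91, 3.92, 3.85 and 3.90 in iHAC2-iPS, 3.99, 3.93, 4.24 and 4.07 in iHAC-free-iPS, 4.00 in MEF and 3.90 in 20D17. All 16 arrays lay between 3.85 and 4.26, and the largest difference from ES was the 0.21 ± 0.13 of iHAC1-iPS. Ctnnb1 (1) stood at 3.41 and 3.32 in ES, 3.60, 3.20, 3.49 and 3.50 in iHAC1-iPS, 2.58, 3.19, 3.07 and 2.96 in iHAC2-iPS, 3.45, 3.31, 3.69 and 3.38 in iHAC-free-iPS, 3.47 in MEF and 3.34 in 20D17 and was lowest in 2-B1. Ctnnb1 (3), a cDNA clone probe, was lowest in MEF and highest in 1-A3, at 0.92.

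Axin1 stood at 0.74 and 0.36 in ES, 0.47, 0.27, 0.52 and 0.38 in iHAC1-iPS, -0.32, 0.62, 0.26 and 0.67 in iHAC2-iPS, 0.46, 0.33, 0.57 and 0.45 in iHAC-free-iPS, 0.04 in MEF and 0.51 in 20D17, with 2-B1 the lowest array. Gsk3b (1) ranged from -2.75 to -2.03 over the 16 arrays. Gsk3b (2) stood at -2.03 and -1.75 in ES, -0.58, -0.75, -1.37 and -1.30 in iHAC1-iPS, -1.97, -1.61, -1.73 and -2.21 in iHAC2-iPS, -1.89, -1.99, -1.92 and -1.99 in iHAC-free-iPS, -0.61 in MEF and -2.10 in 20D17, and the iHAC1 lines and MEF were the 5 highest arrays. Its difference from ES, 0.89 ± 0.24 (adjusted p = 0.021), passed the p threshold but not 2-fold. 

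Apc had 6 probes, of which 1 was called. Apc (1) stood at -0.79 and -0.98 in ES, 0.64, 0.25, 0.43 and 0.75 in iHAC1-iPS, 0.34, -0.02, 0.06 and -0.33 in iHAC2-iPS, -0.26, -0.39, -0.23 and -0.17 in iHAC-free-iPS, 0.34 in MEF and -1.16 in 20D17, a difference of 1.41 ± 0.20 for iHAC1-iPS minus ES (adjusted p = 0.00069) without overlap. ES and 20D17 were the 3 lowest arrays, and iHAC2-iPS ran from -0.33 to 0.34. Apc (3) and Apc (6), also above background throughout, differed from ES by -0.21 ± 0.16 and -0.23 ± 0.16 (adjusted p = 0.39 and 0.35). The Apc probes therefore did not read 1 common change of the gene.

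Axin2, a direct target and feedback inhibitor of the canonical branch, stood at -3.04 and -1.31 in ES, -3.81, -4.57, -2.26 and -4.0 in iHAC1-iPS, -2.39, -4.20, -3.58 and -2.93 in iHAC2-iPS, -1.19, -2.51, -2.52 and -2.41 in iHAC-free-iPS, -0.47 in MEF and -1.59 in 20D17. MEF was highest and 1-B lowest, and each group of 4 lines overlapped ES. The difference of iHAC1-iPS from ES was -1.49 ± 0.69 (adjusted p = 0.15).

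Of 10 tested nuclear factor probes, 0 were higher and 2 lower in iHAC1-iPS than in ES (6.88% and 7.39% of all probes). Against iHAC2-iPS 3 were higher and 2 lower (8.68% and 11.3%). Tcf7l1, the repressor that is the main family member of ES cells, stood at 4.64 and 4.14 in ES, 3.20, 3.19, 3.34 and 3.02 in iHAC1-iPS, 3.90, 3.87, 3.90 and 3.70 in iHAC2-iPS, 4.02, 4.09, 4.67 and 4.33 in iHAC-free-iPS, 3.41 in MEF and 4.11 in 20D17 for its first probe. All iHAC1 values were under every value of the other stem cell groups, and MEF lay at 3.41. The difference from ES was -1.20 ± 0.20 (adjusted p = 0.0020), and the second probe ran the same way by -0.91 ± 0.26 (adjusted p = 0.030), short of 2-fold. In iHAC-free-iPS the 2 probes differed from ES by -0.11 ± 0.20 and -0.11 ± 0.26.

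Tcf7, an activator known from T cells, stood at -0.12 and 0.28 in ES, -1.65, -0.60, -0.43 and -1.66 in iHAC1-iPS, 0.96, -0.28, 1.18 and 0.23 in iHAC2-iPS, 0.49, 0.72, 0.46 and 0.63 in iHAC-free-iPS, -1.81 in MEF and 0.04 in 20D17 for its first probe. It was lower in iHAC1-iPS than in iHAC2-iPS by -1.61 ± 0.35 (adjusted p = 0.0045), with no overlap. The second probe stood at -2.12 and -1.68 in ES, -3.80, -2.88, -2.60 and -3.59 in iHAC1-iPS, -2.06, -2.64, -1.25 and -2.38 in iHAC2-iPS, -1.65, -1.37, -1.52 and -1.57 in iHAC-free-iPS, -3.73 in MEF and -2.08 in 20D17 and was lower than ES by -1.32 ± 0.39 (adjusted p = 0.030) and than iHAC2-iPS by -1.14 ± 0.32 (adjusted p = 0.015). MEF was among the lowest arrays for both probes.

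Lef1, itself a target of the pathway, stood at -0.18 and 0.24 in ES, 1.02, 0.00, 1.18 and 1.02 in iHAC1-iPS, -1.94, 0.27, -3.63 and -2.51 in iHAC2-iPS, 0.16, -2.57, -0.59 and -1.28 in iHAC-free-iPS, -0.75 in MEF and -0.18 in 20D17 for the probe that was measured. It was 2.76 ± 0.74 higher in iHAC1-iPS than in iHAC2-iPS (adjusted p = 0.013), yet 2-C6 at 0.27 lay inside the iHAC1 range, while 2-E was the lowest of all arrays. Against ES the difference was 0.77 ± 0.90 (adjusted p = 0.59). Tcf7l2 (3) stood at 0.61 and 0.44 in ES, 1.54, 1.98, 1.00 and 1.44 in iHAC1-iPS, 0.17, 1.53, -0.11 and -0.03 in iHAC2-iPS, 0.53, 0.36, 0.64 and 0.30 in iHAC-free-iPS, 2.10 in MEF and 0.81 in 20D17. It was 1.10 ± 0.32 higher in iHAC1-iPS than in iHAC2-iPS (adjusted p = 0.020), again with 2-C6 inside the iHAC1 range, and MEF was highest. Tcf7l2 (1) and (2) ran the same way without a call, by 0.40 ± 0.31 and 1.5 ± 0.60.

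Tcf3 is by its accession the gene of the E2A proteins, which are helix-loop-helix factors and not partners of β-catenin, although Tcf7l1 was long called by the same name. Its second probe stood at 0.77 and 0.69 in ES, 1.30, 1.04, 1.05 and 1.27 in iHAC1-iPS, -0.34, 0.44, -0.05 and 0.56 in iHAC2-iPS, 0.61, 0.42, 0.61 and 0.45 in iHAC-free-iPS, 0.50 in MEF and 0.53 in 20D17. It was 1.01 ± 0.18 higher in iHAC1-iPS than in iHAC2-iPS (adjusted p = 0.0017), and the first probe 0.88 ± 0.14 (adjusted p = 0.00095), under 2-fold.

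**Figure D3:**
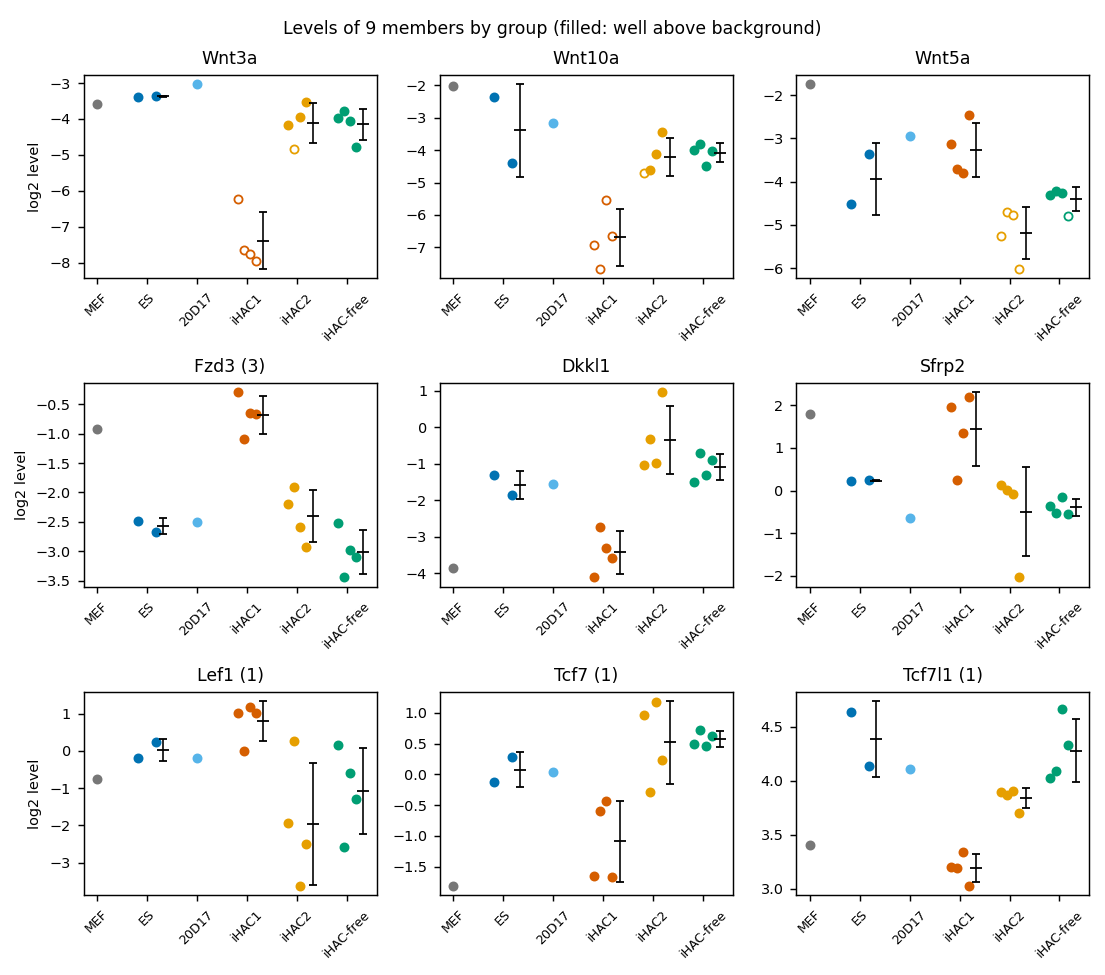
Log2 level (y axis, relative to the 75th percentile of the array) of 9 probes in each group (x axis), 1 point per array, filled where well above background and open where not; bars are the mean ± SD of groups with 2 or 4 arrays. The iHAC1 points lie under all the other stem cell groups for Wnt3a, Wnt10a and Tcf7l1 (1) and above them for Fzd3 (3).

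The MEF array, which entered no test, can be set beside the calls. MEF lay above the ES mean for all 4 probes called higher in iHAC1-iPS than in ES, and above the iHAC2 mean for all 11 called higher than in iHAC2-iPS. Among all probes called higher these shares were 87% and 88.9%. MEF was nearer to the iHAC1 mean than to the other for 4 of the 4 and 9 of the 11, against 69.9% and 75.3% of all such probes. For the lower calls, MEF lay under the ES mean for 5 of 7 and under the iHAC2 mean for 4 of 7 (90.5% and 88.1% of all probes called lower), and was nearer to the iHAC1 mean for 3 of 7 in each (78.4% and 77.2%). For 5 of the 7 called lower than ES, MEF stood above every iHAC1 line, among them Wnt3a, Wnt10a and Wnt6 (2) at -3.60, -2.01 and -2.47, with Wnt7b and Tcf7l1 (1) the others. Fibroblast markers were higher in iHAC1-iPS than in ES, as given above, and their part in these results was not tested.

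On slide 2, where 1-D6 was hybridised with B6ES and TT2, all 11 probes called against ES had the same sign and at least a 2-fold difference. These arrays had themselves entered the calls and hold 1 iHAC1 line, so this is no independent check. With slide as a block, 6 of 77 were called, and there the differences again come from 1-D6 against B6ES and TT2. Leaving out B6ES gave 4 calls, Wnt3a, Apc (1), Fzd3 (3) and a newly called Lrp6 (1), while leaving out 1-A3 gave 7 and leaving out 1-C3 gave 17. Apc (1) and Fzd3 (3) kept the call under all 13 alternatives, and Wnt3a under every left-out line. Without B6ES the calls of Tcf7l1 (1), Wnt7b, Wnt6 (2) and Wnt10a were lost, and those of Fzd4, Dkkl1, Dkk3 and Tcf7 (2) were lost without B6ES and also without at least 1 of TT2, 1-A3 and 1-D6. Against iHAC2-iPS, Fzd3 (3), Dkkl1, Lef1 (1), Sfrp2 and Tcf7 (1) kept the call under all 15 alternatives. The calls of Wnt2, Wnt6 (2), Wnt8b, Lrp6 (2), Tcf3 (2), Tcf7 (2) and Tcf7l2 (3) were each lost on leaving out at least 1 line. These lines were 1-A3, 1-B, 1-C3, 1-D6, 2-B1, 2-C6, 2-E and 2-N, with 2-E deciding 6 of the 7 genes.

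Against ES, the iHAC2-iPS lines had a single called member. 1 of 77 probes was called, the dim Wnt9a (2) described above, which is 1.3% of the members against 6.73% of all probes (3.45% higher and 3.27% lower). At an unadjusted p under 0.05 there were 17, and the share of all probes at that cutoff was not counted. All 4 iHAC2 lines were below background for Dkk1 (1), at least 3.73-fold lower than ES by the bound and not called (adjusted p = 0.081), and Wnt2 differed by -1.44 ± 0.50 (adjusted p = 0.076). Wnt7b and Apc (1) passed the p threshold under 2-fold, at -1.0 ± 0.29 and 0.90 ± 0.20. The count rested on single arrays, being 0 without B6ES, TT2, 2-B1 or 2-E and 5 without 2-C6 or without 2-N.

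In iHAC-free-iPS no member was called against ES by limma, compared with 0.366% of all probes (0.172% higher and 0.194% lower). An unadjusted p under 0.05 was reached by 9 probes, again with no count over all probes. Among members that both groups measured on at least 1 array, the differences ran from -1.88 ± 0.61 for Fzd3 (1) to 1.29 ± 0.44 for Dkk3, and the adjusted p nearest to the threshold was 0.0795, for Lrp5 at 0.61 ± 0.16. Wnt3a was -0.78 ± 0.47 from ES, Tcf7 (1) 0.49 ± 0.43 and Lef1 (1) -1.10 ± 0.90. These values missed the threshold, which does not show that the lines are alike.

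Between iHAC2-iPS and iHAC-free-iPS no member was called either, against 0.77% of all probes (0.216% higher and 0.554% lower). At an unadjusted p under 0.05 there were 10 probes, also with no count over all probes. The iHAC-free lines were sub-clones of cells sorted for loss of the vector's green fluorescence (EGFP). Vector loss, sorting and subcloning therefore cannot be told apart here. For Dkk1 (1) all 4 iHAC2 lines were below background and all 4 iHAC-free lines above it, and the values did not overlap. F-E4, at -4.92, lay under the dimmest signal well above background in 2-B1, 2-C6 and 2-N (-4.35, -4.79 and -4.83). Those arrays may not have measured such a level. The bound on the means was at least 2.26-fold lower in iHAC2-iPS (limma, adjusted p = 0.17), with F-B1 at -0.80 the highest iHAC-free line. Dkk1 (2) was above background on 1 iHAC-free array and on 0 iHAC2 arrays. Without 2-N, Wnt9a (2) was called, at 1.23 ± 0.30 with values below background on both sides. A fit with line of origin as a replicate block also called 0 members.

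Wnt3, Wnt8a and Dkk1 varied widely among the lines of 1 group. Wnt3, which starts streak formation in the embryo, stood at -2.19 and -0.41 in ES, -4.03, -2.21, 0.17 and -4.51 in iHAC1-iPS, -0.68, -1.53, -1.19 and -4.33 in iHAC2-iPS, -0.11, -1.85, -1.76 and -2.08 in iHAC-free-iPS, -3.16 in MEF and -0.38 in 20D17 for its first probe. Wnt8a stood at -2.63 and 0.55 in ES, -5.63, -1.67, 0.72 and -2.26 in iHAC1-iPS, -1.99, -1.63, -3.21 and -6.85 in iHAC2-iPS, -1.05, -3.03, -2.27 and -2.83 in iHAC-free-iPS, -8.05 in MEF and 0.11 in 20D17. Dkk1, a secreted inhibitor that Wnt signalling induces, stood at -3.81 and -1.92 in ES, -4.95, -6.66, -1.57 and -5.63 in iHAC1-iPS, -6.10, -6.22, -7.22 and -6.90 in iHAC2-iPS, -0.80, -4.46, -4.92 and -4.14 in iHAC-free-iPS, -2.56 in MEF and -2.04 in 20D17 for its first probe. TT2, 20D17, 1-C3 and F-B1, lines of 4 groups with and without a vector, were the 4 highest arrays for each of the 3 probes.

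Within iHAC1-iPS the standard deviation over lines was 2.13 for Wnt3 (1), 2.62 for Wnt8a and 2.20 for Dkk1 (1), against 0.112 for Ctnnb1 (2). Within iHAC2-iPS it was 1.64, 2.38 and 0.54, and Lrp6 (2) and Lef1 (1) were at 1.82 and 1.64. Of 11 mesoderm and endoderm markers, T, Mixl1 and Foxa2 had the same 4 highest arrays, while Eomes, Mesp1, Kdr, Gata4, Gata6, Sox17, Sox7 and Afp did not. T (Brachyury), the defining gene of the streak, was -0.96, -0.71, -0.33 and -1.06 in TT2, 20D17, 1-C3 and F-B1 and -7.92 to -2.81 on the other arrays. Mixl1 was -4.21 to -2.64 on those 4 arrays and -8.24 to -6.59 on the others. Foxa2 was 0.70 to 2.86 on those 4 and -7.03 to -0.90 elsewhere. The summed level of the 5 mesoderm markers ran from 0.51 to 1.84 in ES, 0.08 to 2.20 in iHAC1-iPS, 0.31 to 1.07 in iHAC2-iPS and 0.25 to 1.70 in iHAC-free-iPS, and of the 6 endoderm markers from 0.74 to 6.94, 0.17 to 8.05, 0.18 to 0.94 and 0.46 to 5.63. The 5 trophectoderm markers ran from 0.98 to 7.82, 0.12 to 0.43, 0.73 to 3.31 and 2.58 to 5.03. These 4 arrays were picked out by their values, so no test was made between them and the rest, and the part of such cells in the Wnt levels was not tested.

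**Figure D4:**
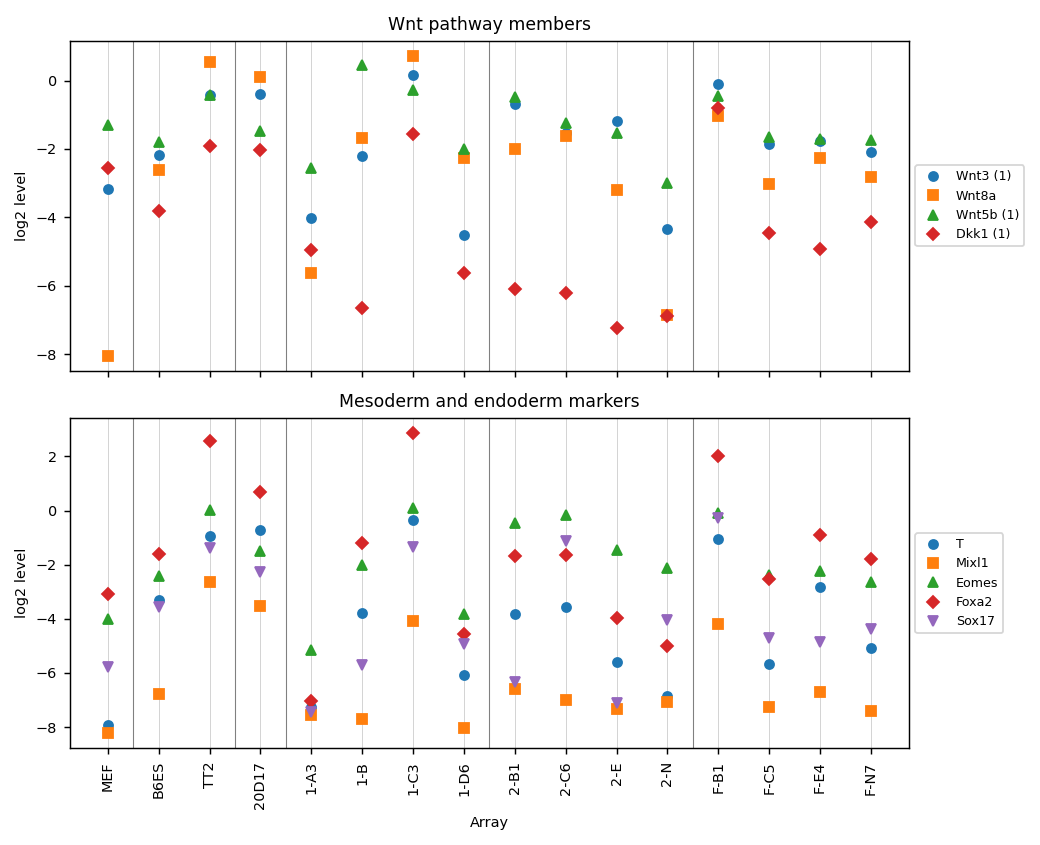
Log2 level (y axis, relative to the 75th percentile of the array) on each of 16 arrays (x axis, groups separated by grey lines) of 4 Wnt pathway probes above and of 5 mesoderm and endoderm markers below. TT2, 20D17, 1-C3 and F-B1 hold the 4 highest values of Dkk1 (1), T, Mixl1 and Foxa2, but not those of Eomes and Sox17.

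The TCF/LEF core motif, CTTTGAA or CTTTGAT on either strand, was looked for in the promoters that RefSeq gives on GRCm38.p6, a window from 250 bases before the gene's start to 50 bases after it. 34 of 50 members had a promoter in that table, and 3 of the 34 (8.82%) held the motif, against 2671 of 27025 genes (9.88%). The share in the members was near that of all genes. The 3 were Dkk1, Wnt5b and Wnt11, and their 250 bases before the start are shown because they were the only members with a match. Capitals mark the motif. The Dkk1 promoter is chr19:30549497-30549746 (minus strand), the Wnt5b promoter chr6:119449387-119449636 (minus strand) and the Wnt11 promoter chr7:98834862-98835111 (plus strand), all on GRCm38.p6, a later build than the mm9 of the array files. 
Dkk1: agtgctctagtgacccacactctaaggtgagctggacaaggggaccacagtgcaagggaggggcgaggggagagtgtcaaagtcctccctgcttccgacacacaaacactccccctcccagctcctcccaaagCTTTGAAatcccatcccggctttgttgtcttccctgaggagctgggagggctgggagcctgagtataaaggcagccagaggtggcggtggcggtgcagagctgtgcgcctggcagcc
Wnt5b: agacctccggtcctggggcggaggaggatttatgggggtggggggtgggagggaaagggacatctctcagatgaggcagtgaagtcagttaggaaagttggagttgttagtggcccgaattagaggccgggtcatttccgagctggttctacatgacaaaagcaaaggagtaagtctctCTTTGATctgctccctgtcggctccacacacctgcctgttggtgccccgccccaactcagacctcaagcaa
Wnt11: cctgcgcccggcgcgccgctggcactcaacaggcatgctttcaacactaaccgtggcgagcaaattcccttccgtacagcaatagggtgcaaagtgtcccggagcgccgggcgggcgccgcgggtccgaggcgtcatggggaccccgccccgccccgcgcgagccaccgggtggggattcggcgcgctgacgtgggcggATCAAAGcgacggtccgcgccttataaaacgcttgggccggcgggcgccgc

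The motif begins 117 bases before the start in Dkk1, 71 in Wnt5b and 51 in Wnt11, where it stands on the other strand as ATCAAAG. Wnt5b (1) stood at -1.81 and -0.41 in ES, -2.56, 0.45, -0.26 and -2.01 in iHAC1-iPS, -0.50, -1.25, -1.54 and -2.99 in iHAC2-iPS, -0.46, -1.66, -1.71 and -1.73 in iHAC-free-iPS, -1.31 in MEF and -1.48 in 20D17. Its highest arrays were 1-B, 1-C3, TT2 and F-B1, and 2-N was lowest. Wnt11 ranged from -3.49 to -2.07 over the stem cell arrays and was -0.78 in MEF. For the other members with a listed promoter, no match says only that these letters are not in this window. Members without a listed promoter were not searched.

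Other genes of the pathway were counted from lists chosen by role. Of 65 listed genes 64 had a probe matched by name, with 100 probes tested. The gene without a match was Nanog, listed among the genes that Tcf7l1 represses. The paper marks Nanog in its scatter plots of these arrays, so its absence here comes from the name match. Called were 23 probes in iHAC1-iPS against ES (11 higher and 12 lower, against 14.3% of all probes), 10 in iHAC2-iPS against ES (5 higher and 5 lower, against 6.73%), 0 in iHAC-free-iPS against ES (0.366%), 25 in iHAC1-iPS against iHAC2-iPS (14 higher and 11 lower, against 20%), and 2 lower in iHAC2-iPS than in iHAC-free-iPS (0.554%).

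Among agonists, Rspo1, which amplifies Wnt signals, was -3.01 ± 0.75 lower in iHAC1-iPS than in ES (adjusted p = 0.015), and its receptor Lgr4 -1.18 ± 0.31 (adjusted p = 0.018). These were the only calls among 8 agonist and 12 receptor-turnover probes in that comparison. Over all probes it called 6.88% higher and 7.39% lower, the shares to set beside each count by list. Of 12 probes of other inhibitors 3 were higher and 1 lower, with Apcdd1, a membrane inhibitor, 2.58 ± 0.84 higher (adjusted p = 0.046). Of 24 cytoplasmic probes 4 were higher, among them Nkd2, an inhibitor that binds Dishevelled, at 1.56 ± 0.40 (adjusted p = 0.016).

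Of 13 nuclear probes 1 was higher and 1 lower, the latter Tle4, a co-repressor of the Tcf factors, at -2.17 ± 0.30 (adjusted p = 0.00060). Of 12 planar polarity probes 3, all of Prickle2, were higher, and Vangl1 was -2.09 ± 0.47 lower (adjusted p = 0.0091). Of 12 direct target probes 2 were lower, those of Cdx1 and Cdx2, which mark posterior and trophectoderm cells. Of 7 probes of 4 genes that Tcf7l1 represses in ES cells, 5 were lower in iHAC1-iPS (7.39% of all probes), with Tfcp2l1 at -6.05 ± 0.74 (adjusted p = 0.00031). Klf2 gave -4.61 ± 0.64 with one probe (adjusted p = 0.00066) and 0.31 ± 0.17 with the other (adjusted p = 0.23). In iHAC-free-iPS none of the 7 was called against ES. Tcf7l1 was itself lower in iHAC1-iPS. Of the 8 pluripotency markers, of which Esrrb is one, 7 were lower in every iHAC1 line than in both ES lines and Pou5f1 was higher; for Tdgf1 the gap was small, with 2.63 and 2.77 in 1-B and 1-C3 against 2.91 and 2.84 in ES.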

How the data were processed

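Total RNA was labelled with Cy3 and hybridised to the Agilent Whole Mouse Genome array, 1 array per line. Per the file headers, the deposited intensity values came from Agilent Feature Extraction 10.7.1.1 (scan session 1) and 10.7.3.1 (session 2), which subtracted a fitted background surface, and probe positions are on mm9. The authors also deposited a table of log2 values normalized in GeneSpring GX 11; set against the scanner values of each array it had slopes of 0.9988 to 1.001, so its scale is log2, each probe is centred on its median over arrays, and it served as an alternative. Its median per array ran from -0.33 (MEF) to 0.28 (2-B1).

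Log2 of the processed signal minus the 75th percentile of each array was computed after control spots and outlier spots were left out, and spots of a probe were averaged. The 31415 probes that any of the 16 arrays showed well above background entered 1 limma 3.58.1 fit (R 4.3.3) over 6 groups, with eBayes and Benjamini-Hochberg adjustment over all of them. Called means an adjusted p under 0.05 and at least 2-fold. MEF and 20D17, with 1 array each, were not tested. Where no array of the dimmer group was well above background, the fold is an approximate lower bound. It sets the brighter mean against the mean of, per array, the dimmest signal well above background or the probe's own if higher. A probe brighter than that dimmest signal can still fail to be well above background, as Wnt5a did in 2-C6 (-4.70 against -4.79). The precision is limited by the number of arrays, 2 or 4 a group. 28026 probes had a RefSeq accession and 26690 were named through it; 70 of 78 member probes matched and 0 symbols differed.

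All member genes with a called probe are given with every array's value, as are Ctnnb1, Gsk3b, Apc, Axin1, Axin2, Lrp5, Lrp6, Lef1, Tcf7, Tcf7l1 and Tcf7l2 for at least 1 probe; others are given by range and count. The rule for members uses gene names and no measured value, but the pathway and the lists were chosen with earlier results of these data known. Alternatives were another background correction (normexp, offset 50), quantile normalization, the deposited table, 2 other filters on dim probes, slide as a block, only the compared groups in the fit, line of origin as a block, and each line left out. The pairing of iHAC2-iPS with iHAC-free-iPS lines comes from their common clone of origin; their deviations from the group means correlated at -0.07, -0.22, 0.03 and 0.08 across probes, against -0.11 to 0.22 for other pairs. The check on cell types used 15 fibroblast, 10 pluripotency (8 with a named probe), 6 endoderm, 5 mesoderm and 5 trophectoderm genes, the probe with the highest mean for each, summed on the linear scale.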

Additional observations from a re-analysis of the deposited data

Results flagged for a closer look

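In 163 sets of 4 values, each of 1 probe in 1 group, 1 line lay far from the other 3 by Dixon's test in 17. Chance gives about 1 in 20 (8.15) for independent sets. These sets share the same lines and include several probes of a gene, so they are not independent and no excess over chance can be read. All values are log2 levels. In iHAC-free-iPS, F-B1 was high for Axin2 (-1.19), Wnt3 (1) (-0.11), Wnt5b (1) (-0.46) and Wnt5b (2) (-2.74). In iHAC2-iPS, 2-C6 was high for Tcf7l2 (1) (-3.00) and Tcf7l2 (3) (1.53) and low for Wnt7b (-1.32) and Sfrp4 (-4.34). Also in iHAC2-iPS, 2-N was low for Fzd6 (-3.75), Sfrp2 (-2.04) and Tcf7l1 (1) (3.70). In iHAC1-iPS, 1-B was low for Lef1 (1) (0.0), Fzd10 (1) (-2.07) and Fzd3 (1) (-2.85). In the same group 1-A3 was high for Apc (5) (-2.55) and Gsk3b (1) (-2.04), and 1-D6 was low for Tcf7l1 (2) (0.38). The cause of these differences was not tested.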

How the results depend on the processing

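No difference of a called probe changed direction under the alternatives run: of 413 values of single probes 328 kept the call and 85 lost it. With normexp background correction, which shrinks differences between dim probes (Wnt3a from -4.01 to -0.79), the member calls were 6 (3 higher and 3 lower) for iHAC1-iPS against ES, 0 for iHAC2-iPS against ES and 6 for iHAC1-iPS against iHAC2-iPS. Calls over all probes also fell, to 2362, 938 and 2612 from 4483, 2113 and 6270 in the main fit. Quantile normalization gave 0 members for iHAC2-iPS against ES (1958 of all probes), as did a fit of the compared groups alone, while no filter on dim probes gave 4. Among the alternatives, calls over all probes were counted only for normexp, quantile normalization and the deposited table. A strict filter gave 10 for iHAC1-iPS against iHAC2-iPS, with fewer probes tested, and for iHAC2-iPS against ES it replaced the call of Wnt9a (2) with Wnt2, lower by -1.44. Slide as a block gave 6 for iHAC1-iPS against ES, as a fixed term since slide 2 holds both groups, and 4 for iHAC2-iPS against ES, as a random block (duplicateCorrelation) since no slide holds both. Leaving out 1 line gave 4 (without B6ES) to 17 (without 1-C3) for iHAC1-iPS against ES, 0 to 5 for iHAC2-iPS against ES, 12 to 23 for iHAC1-iPS against iHAC2-iPS, and 0 to 1 between iHAC2-iPS and the lines freed of it. The replicate block on line of origin called 0 and changed no call. The cause of these changes was otherwise not tested.

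Over all probes, the split of higher and lower calls for iHAC1-iPS against iHAC2-iPS was 2728 and 3542, and 3339 and 2740 after quantile normalization, where the median difference moved from -0.05 to 0.07. With normexp it was 59 and 115 in place of 54 and 61 for iHAC-free-iPS against ES (median 0.02 to -0.16), and 114 and 160 in place of 68 and 174 for iHAC2-iPS set against its vector-free derivatives (median 0.05 to 0.16). Dim ligands limit these data, since 48 of 77 tested probes were above background on all 16 arrays.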
